A study of Mus musculus with 22 samples.

Results

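The genes described here encode 5 death receptors and other receptors of the TNF receptor superfamily (*Fas*, *Tnfrsf1a*, *Tnfrsf1b*, *Tnfrsf10b* and *Tnfrsf21*) and 5 proteins that act directly below them (*Fadd*, *Casp8*, *Cflar*, *Ripk1* and *Nfkbia*). They were chosen by name as components of FAS and TNF receptor signalling and make up 10 of the 24454 gene symbols in the count table. Their RNA was measured in 22 libraries, each made from 25 VE-Cadherin-positive cells sorted by CD44 and Kit from the aorta-gonad-mesonephros (AGM) region of C57BL/6 mouse embryos. The AGM is the region of the embryo where endothelial cells lining the aorta give rise to the first haematopoietic stem cells, a process called the endothelial to haematopoietic transition. All embryos were of 1 strain, and the labels give no treatment or genetic change.

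CD44Neg cells, called endothelial in the labels, gave 10 libraries, of which 4 came from E9.5, 3 from E10 and 3 from E11. CD44LoKitNeg cells, called hemogenic endothelial, gave 6 libraries, with 1 from E9.5, 2 from E10 and 3 from E11. CD44LoKitPos cells, labelled Pre-HSPC, gave 3 libraries (1 from E9.5 and 2 from E10), and CD44High cells, labelled HSPC, gave 3 (all from E11). Stage and population are therefore partly tied together, and the date written in the labels changes with the stage, so date and stage cannot be told apart. The labels do not say whether libraries came from separate embryos or litters, so the p-values measure the spread between these libraries, which may be technical. Between 3912350 and 8657546 reads were counted per library. The sorting genes followed the sort for *Cd44*, which averaged 29.9 normalised CPM (read counts scaled to library size) in CD44Neg and 254 to 268 in the other 3 populations, whereas *Cdh5*, which encodes VE-Cadherin, had 0 counts in all 3 CD44High libraries.

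When FAS ligand or TNF-family ligands bind, death receptors gather the adaptor FADD and the protease caspase-8, which starts apoptosis unless it is held back by the inhibitor encoded by *Cflar* (c-FLIP). TNF receptors also use the kinase RIPK1 to switch on the transcription factor NF-κB, which is held in the cytoplasm by IκBα, the product of *Nfkbia*, itself a well-known NF-κB target. In endothelium and blood cells the same receptors can therefore lead to survival, inflammatory gene expression or death.

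*Fas* was the only one of these genes called between the 2 endothelial populations (CD44LoKitNeg against CD44Neg). It ranged from 0 to 19.2 normalised CPM in the 10 CD44Neg libraries, with a median of 9.44, and from 57.5 to 116 in the 6 CD44LoKitNeg libraries, with a median of 100.4. Every CD44LoKitNeg library was thus above every CD44Neg library. The mean rose from 9.30 ± 6.80 (SD, n = 10) to 95.6 ± 20.3 (SD, n = 6), a 10.3-fold ratio, with a fitted log2 fold change of 3.36 (SE 0.60, adjusted p = 0.000600, edgeR quasi-likelihood test). In raw counts *Fas* had 371 to 897 reads in CD44LoKitNeg against 0 to 124 in CD44Neg, where 2 libraries had none. A count of 0 allowed up to 3 counts, or 0.348 to 0.795 normalised CPM in the CD44Neg and CD44LoKitNeg libraries, and covers counting error only. Some marker genes moved in the same comparison. Of 8 endothelial markers *Tek* and *Cdh5* were called higher in CD44LoKitNeg (log2 fold changes 1.41 and 1.48), beside 10.2% of all genes called. Of 8 blood markers 4 were tested, all 4 with a positive log2 fold change (median 2.16), and *Spi1* was called (4.56). The endothelial sum was 3131 to 5086 normalised CPM in CD44Neg and 3330 to 7431 in CD44LoKitNeg, the blood sum 5.84 to 40.2 and 4.49 to 264, and the erythroid sum over 8 markers 2.61 to 23.7 and 21.5 to 61.3. The mesenchyme sum over 8 markers was 0 to 36.7 in CD44Neg and 4.19 to 99.1 in CD44LoKitNeg, and the macrophage sum over 10 markers 1.21 to 16.95 and 0 to 72.4. All of these sums overlapped between the populations, and their part in the *Fas* difference was not tested. The study named *Fas* as a marker of CD44LoKitNeg from these same libraries, so the present value is not independent evidence of that direction.

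By stage, *Fas* in CD44LoKitNeg was 92.6 normalised CPM in the E9.5 library, 106 and 98.5 in the E10 libraries, and 102, 116 and 57.5 in the E11 libraries. The last of these was the lowest, and it was still above the highest value in any other population. No difference of E11 from the earlier stages was called within CD44LoKitNeg (log2 fold change -0.07, SE 0.31, adjusted p = 0.953), nor was a dependence on stage of the difference from CD44Neg (interaction -0.01, SE 1.30, adjusted p = 1). The fitted difference was larger within E11 alone (log2 fold change 3.61) and within E10 alone (4.08), but with 3 against 3 and 2 against 3 libraries neither was called (adjusted p = 0.0610 and 0.116). Among all genes tested in this comparison *Fas* ranked 337 by p and 101 by the size of its rise.

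In the CD44LoKitPos and CD44High libraries the *Fas* mean was lower than in CD44LoKitNeg, by a difference that was not called. It was 29.1, 2.79 and 9.61 normalised CPM in the CD44LoKitPos libraries (the first from E9.5) and 0, 33.8 and 6.53 in the CD44High libraries. The means were 13.8 ± 13.7 and 13.4 ± 17.9 (SD, n = 3 each), so the spread was as large as the level. No library of either population reached the lowest CD44LoKitNeg library. The fitted log2 fold changes against CD44LoKitNeg were -2.79 (SE 1.18, adjusted p = 0.124) for CD44LoKitPos and -2.84 (SE 1.19, adjusted p = 0.0818) for CD44High, and neither was called. The CD44High libraries had 0 counts of *Cdh5* and a sum over 10 macrophage markers of 3760 to 6086 normalised CPM, against 0 to 72.4 in CD44LoKitNeg. Their sum over 8 blood markers was 1038 to 1812, against 4.49 to 264 in CD44LoKitNeg. The part of these in the *Fas* level was not tested. *Fas* thus had its highest level in CD44LoKitNeg, and the other 3 populations could not be ordered because their ranges overlapped.

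**Figure D1:**
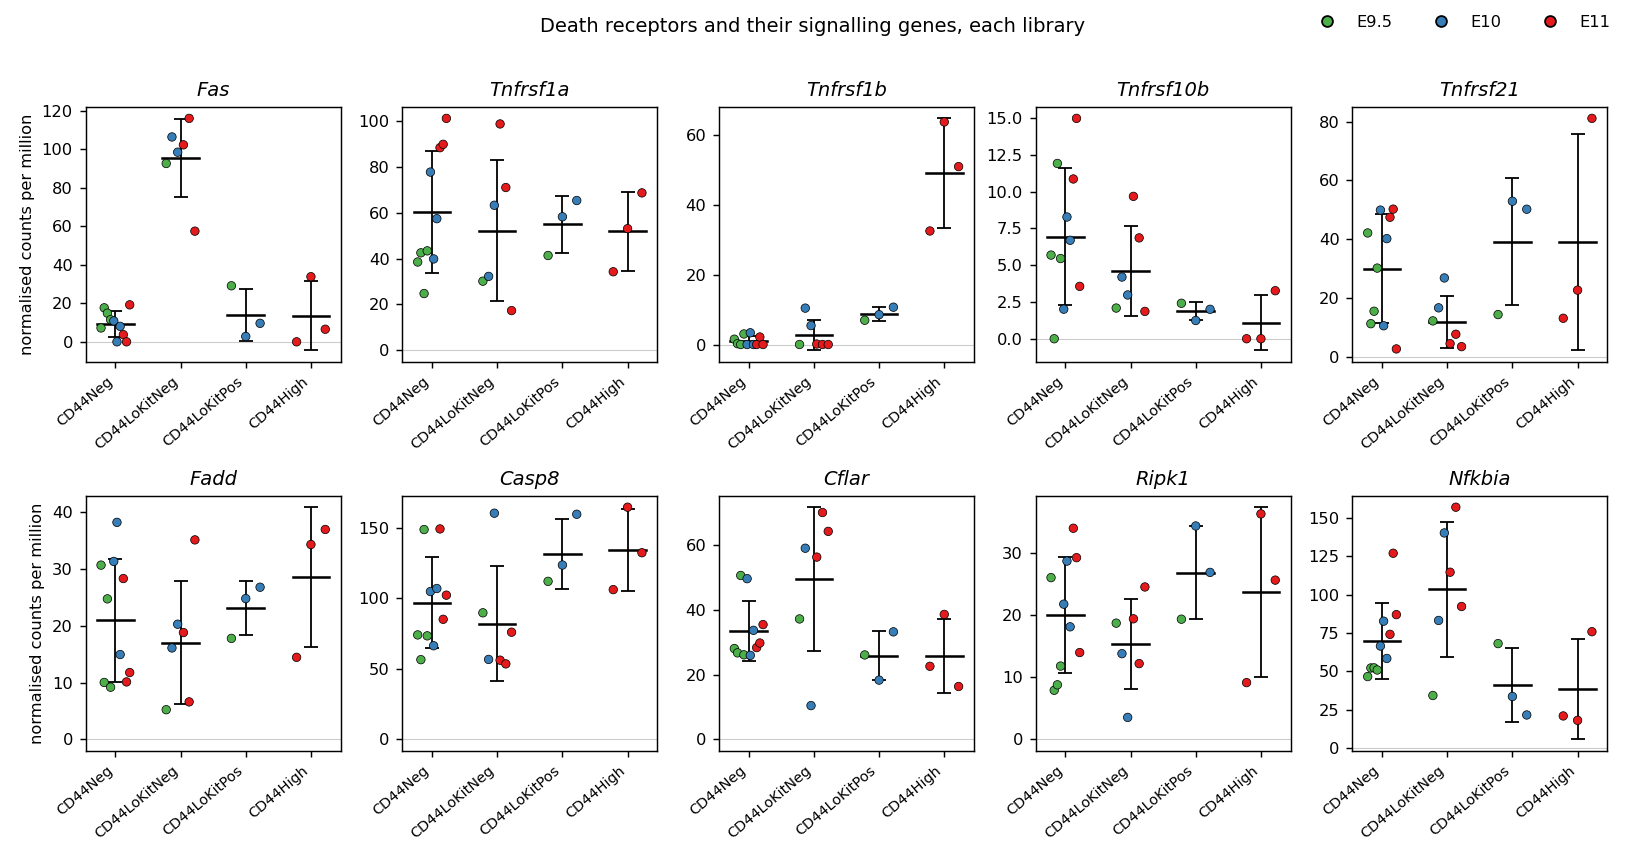
Normalised CPM (linear y axes, each panel with its own scale) of the 10 genes in each of the 22 libraries, by population on the x axis; points are libraries coloured by stage, horizontal lines are means and bars are SD. Only *Fas* in CD44LoKitNeg (57.5 to 116) and *Tnfrsf1b* in CD44High (32.5 to 63.6) stand clear of all 3 other populations.

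The *Fas* gene lies on chromosome 19 at chr19:34290647-34327775 and *Nfkbia* on chromosome 12 at chr12:55489409-55492647 (RefSeq, GRCm38.p6, the assembly also called mm10). Their promoters, from 250 bases before to 50 bases after the transcript start that the RefSeq promoter table uses, are shown because *Fas* is the receptor that set the endothelial populations apart and *Nfkbia* is a direct NF-κB target. This start need not be the first base of the gene span and lies a few bases inside it for *Fas*. Capitals mark a match to the NF-κB consensus on either strand, and both sequences run 5′ to 3′ on the strand of the gene.
Fas promoter, chr19:34290409-34290708, plus strand: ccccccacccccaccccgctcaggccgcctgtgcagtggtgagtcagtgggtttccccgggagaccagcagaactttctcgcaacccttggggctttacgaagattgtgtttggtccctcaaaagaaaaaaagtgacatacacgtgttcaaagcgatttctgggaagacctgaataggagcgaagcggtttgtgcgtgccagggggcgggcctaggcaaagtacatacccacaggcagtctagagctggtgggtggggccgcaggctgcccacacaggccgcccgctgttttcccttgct
Nfkbia promoter, chr12:55492598-55492897, minus strand: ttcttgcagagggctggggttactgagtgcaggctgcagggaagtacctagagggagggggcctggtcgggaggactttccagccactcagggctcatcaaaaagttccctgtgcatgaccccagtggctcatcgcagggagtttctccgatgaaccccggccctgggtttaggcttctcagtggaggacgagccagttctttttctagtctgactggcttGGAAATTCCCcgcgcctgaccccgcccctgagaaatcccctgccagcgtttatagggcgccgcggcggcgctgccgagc
The *Nfkbia* window held 1 match, starting at position -29 from the start, and the *Fas* window held none. Of 9 of these genes with a promoter in the table (no entry matched *Tnfrsf10b*), *Nfkbia* alone held the NF-κB consensus, which occurred in 8.49% of 32544 promoters of the same length. The RUNX core TGTGGT, searched on both strands and sharing no base with the NF-κB match, was found only in the promoter of *Casp8*, at position -164 from a start inside the gene span, and in 16.7% of all promoters. A match is a description of the letters and not evidence of binding.

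Of the 10 genes, 9 passed the filter on low counts in the comparison of CD44LoKitNeg with CD44Neg, and *Tnfrsf1b* did not. *Fas* was 1 of 9 called, beside 10.2% of all 11022 genes tested, and it was also 1 of 9 whose populations did not overlap, beside 5.58% of all genes. The count is therefore close to the share among all genes, and it rests on *Fas*. At an unadjusted p under 0.05 there were 3 of 9 (*Fas*, *Tnfrsf21* and *Nfkbia*), beside 32.6% of all genes, so this share too was close to that of all genes. DESeq2 called 1, again *Fas*, and 1879 genes in all. Of the 9 fitted differences 3 were positive and 6 negative, with a median log2 fold change of -0.23 beside 0.01 over all genes tested.

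Among the other receptors, *Tnfrsf21* (death receptor 6) was lowest in CD44LoKitNeg. It ranged from 2.63 to 50.2 normalised CPM in CD44Neg (median 35.1) and from 3.41 to 26.8 in CD44LoKitNeg (median 9.90). The ranges overlapped, and the log2 fold change of -1.33 (SE 0.57) was not called (adjusted p = 0.105). *Tnfrsf1a*, the widely expressed TNF receptor that carries a death domain, ranged from 24.8 to 101 in CD44Neg (median 50.3) and from 17.3 to 98.5 in CD44LoKitNeg (median 47.7), a fitted log2 difference of -0.20 (SE 0.36, adjusted p = 0.755). *Tnfrsf10b*, the mouse TRAIL receptor, was scarce, at 0 to 14.98 in CD44Neg (median 6.19) and 1.86 to 9.68 in CD44LoKitNeg (median 3.59), a fitted log2 difference of -0.58 (SE 0.75, adjusted p = 0.654). These receptors therefore showed no difference past the threshold, while *Fas* did.

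None of the genes that act below the receptors was called between the 2 endothelial populations. The adaptor gene *Fadd* ranged from 9.18 to 38.3 normalised CPM in CD44Neg and from 5.22 to 35.2 in CD44LoKitNeg (log2 fold change -0.29, SE 0.45, adjusted p = 0.713). The caspase gene *Casp8* ranged from 56.6 to 149 and from 53.6 to 161 (log2 fold change -0.23, SE 0.26, adjusted p = 0.602). The kinase gene *Ripk1* ranged from 7.87 to 33.9 and from 3.52 to 24.5 (log2 fold change -0.37, SE 0.42, adjusted p = 0.595). The ranges of all 3 overlapped, and with E11 libraries alone the difference in *Fadd* and with E10 libraries alone that in *Casp8* turned positive.

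The remaining 2, *Cflar* and *Nfkbia*, overlapped between the populations as well. *Cflar*, the inhibitor of caspase-8 activation, ranged from 25.9 to 50.6 normalised CPM in CD44Neg (median 29.1) and from 10.4 to 70.1 in CD44LoKitNeg (median 57.7), a fitted log2 difference of 0.58 (SE 0.31, adjusted p = 0.202). Of the 6 CD44LoKitNeg libraries, 4 were above the highest CD44Neg library, and 1 E10 library (10.4) was below the lowest. *Nfkbia* ranged from 46.6 to 127 in CD44Neg (median 62.5) and from 34.3 to 157 in CD44LoKitNeg (median 103.5), a fitted log2 difference of 0.58 (SE 0.27, adjusted p = 0.148). Its lowest CD44LoKitNeg value came from the single E9.5 library. Reads were counted without a stated strand setting. *Fadd* shares 239 exon bases with an antisense gene and *Ripk1* shares 752 exon bases with other genes, so part of their counts could belong to those, whereas exons of the other 8 genes overlap no other gene in GENCODE M21.

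**Figure D2:**
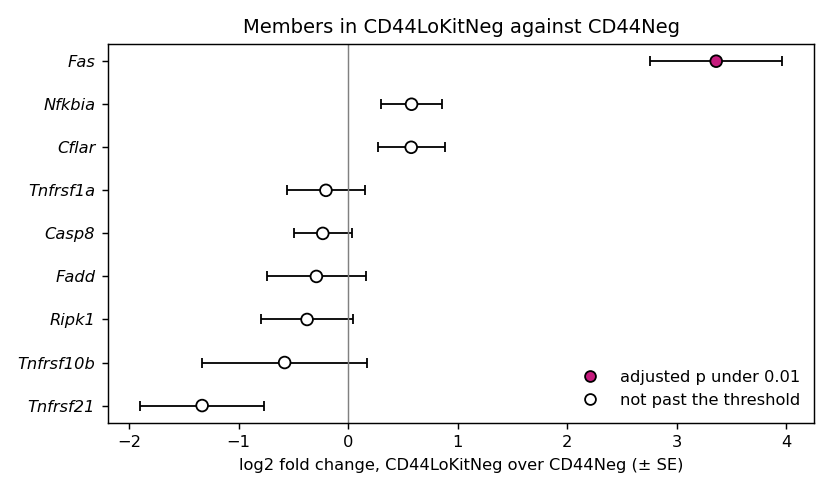
Fitted log2 fold change (x axis, CD44LoKitNeg over CD44Neg, bars are SE) of the 9 genes that passed the filter, one per row; filled points passed an adjusted p of 0.01. *Fas* at 3.36 is the only filled point, and the others lie between -1.33 and 0.58.

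Per kilobase of exon, so that genes can be compared with each other, *Fas* moved from sixth of the 10 genes in CD44Neg (4.51 ± 3.30 normalised CPM per kb, SD, n = 10) to second in CD44LoKitNeg (46.3 ± 9.82, n = 6). On this scale it lay between *Nfkbia* (64.4 ± 27.3) and *Casp8* (28.4 ± 14.2) in CD44LoKitNeg. *Nfkbia* was first in both endothelial populations and *Casp8* first in CD44LoKitPos (45.6 ± 8.59, n = 3) and in CD44High (46.5 ± 10.1, n = 3). *Casp8* and *Cflar* are near neighbours on chromosome 1, at chr1:58795233-58847503 and chr1:58711311-58758884, yet *Cflar* had only 2.64 ± 0.738 normalised CPM per kb in CD44Neg, where *Casp8* had 33.5 ± 11.2. The exon lengths come from GENCODE M21 and join all listed transcripts, which lowers the value of genes with many long transcripts such as *Cflar*.

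*Tnfrsf1b*, which encodes the TNF receptor that lacks a death domain and is found mainly on blood and endothelial cells, had its highest level in CD44High. In CD44Neg it ranged from 0 to 3.36 normalised CPM (median 0.119), with 5 of 10 libraries at 0 counts, and in CD44LoKitNeg from 0 to 10.4 (median 0.0672), with 3 of 6 at 0. In CD44LoKitPos it was 6.94, 8.53 and 10.7, and in CD44High it was 32.5, 63.6 and 50.9. Every CD44High library was thus above every other library, and every CD44LoKitPos library was above every CD44Neg library. The mean rose from 1.03 ± 1.36 (SD, n = 10) in CD44Neg to 49.0 ± 15.7 (SD, n = 3) in CD44High, with a fitted log2 difference of 5.53 (SE 1.30, adjusted p = 0.00276). The gene lies at chr4:145212368-145246870 (GRCm38.p6).

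That difference was called over all 22 libraries but not without CD44High replicate 21 (adjusted p = 0.0156), without replicate 22 (0.0103) or with E11 libraries alone (0.0114). Macrophage, blood and erythroid marker sums were also higher in CD44High than in CD44Neg. Summed over the 10 macrophage markers, the level was 1.21 to 16.95 normalised CPM in CD44Neg, 0 to 72.4 in CD44LoKitNeg, 168 to 230 in CD44LoKitPos and 3760 to 6086 in CD44High, where all 10 were detected. The 8 endothelial markers summed to 3131 to 5086 in CD44Neg, 3330 to 7431 in CD44LoKitNeg, 546 to 1584 in CD44LoKitPos and 16.4 to 74.0 in CD44High. The 8 blood markers summed to 5.84 to 40.2 in CD44Neg, 4.49 to 264 in CD44LoKitNeg, 446 to 1279 in CD44LoKitPos and 1038 to 1812 in CD44High. The erythroid sum over 8 markers was 2.61 to 23.7, 21.5 to 61.3, 9.93 to 29.2 and 58.8 to 285 in the same order. The mesenchyme sum over 8 markers was 0 to 36.7 in CD44Neg and 0.272 to 219 in CD44High. The part of these marker lists in the *Tnfrsf1b* level was not tested. In libraries of pooled cells, fewer cells that use a gene and less RNA per cell cannot be told apart.

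*Tnfrsf1b* was the only gene of the 10 called in any comparison with CD44High or CD44LoKitPos. In CD44High against CD44Neg it was 1 of 10, beside 14.4% of 12949 genes, and 1 of 10 did not overlap, beside 18.8% of genes. It was also the 1 of 10 at an unadjusted p under 0.05, beside 33.2% of genes, and the 1 among the 2335 genes called by DESeq2. In CD44High against CD44LoKitNeg edgeR called 0 of 10, beside 16% of genes, while 2 of 10 (*Fas* and *Tnfrsf1b*) did not overlap, beside 25.3% of genes. At an unadjusted p under 0.05 there were 6 of 10, beside 37.5% of genes, and DESeq2 called 1 (*Nfkbia*) of the 2730 genes it called in all. In CD44High against CD44LoKitPos edgeR and DESeq2 both called 0 of 10, beside 3.01% of genes by edgeR, with 0 at an unadjusted p under 0.05, beside 17.8% of genes, and *Tnfrsf1b* did not overlap, beside 23.9% of genes.

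In CD44LoKitPos against CD44LoKitNeg edgeR called 0 of 10, beside 4.26% of 12949 genes, with 4 at an unadjusted p under 0.05 (*Fas*, *Tnfrsf21*, *Cflar* and *Nfkbia*), beside 27.2% of genes, and 0 of the 1318 genes called by DESeq2. *Fas* was the 1 of 10 that did not overlap, beside 16.9% of genes. In CD44LoKitPos against CD44Neg edgeR called 0 of 10, beside 3.48% of genes, with 1 at an unadjusted p under 0.05 (*Tnfrsf1b*), beside 20.3% of genes, and 0 of the 867 called by DESeq2, and *Tnfrsf1b* was the 1 that did not overlap, beside 9.66% of genes. All 5 comparisons come from 1 fit of the 22 libraries and share their libraries.

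*Tnfrsf1b* and *Nfkbia* came closest to the threshold in CD44High against CD44LoKitNeg. For *Tnfrsf1b* the log2 fold change was 4.20 (SE 1.51, adjusted p = 0.0411), and it passed once stage entered the fit (adjusted p = 0.00810). It also passed with E11 libraries alone (adjusted p = 0.00198), where the CD44LoKitNeg libraries had 1, 0 and 0 counts. The E11 CD44Neg libraries had 0, 11 and 0 counts. The gene therefore passed the filter of that E11 fit only because of CD44High, where it was higher, and this call is not separate support. *Nfkbia* was 20.98, 18.1 and 75.9 normalised CPM in CD44High and 68.1, 33.7 and 21.6 in CD44LoKitPos, against a mean of 104 ± 44.0 (SD, n = 6) in CD44LoKitNeg. In CD44High 2 of the 3 libraries lay below every CD44LoKitNeg library and the third lay among them. The log2 fold change was -1.44 (SE 0.49, adjusted p = 0.0327), and *Nfkbia* was called by DESeq2 (-1.53, adjusted p = 0.00761) and without CD44High replicate 22 (-2.48, adjusted p = 0.00264).

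The remaining genes had overlapping ranges in all 5 of these comparisons. *Tnfrsf10b* had 0, 0 and 12 counts in CD44High and 16, 8 and 15 in CD44LoKitPos. Its difference between CD44High and CD44Neg was not called (log2 fold change -2.67, SE 1.33, adjusted p = 0.164), and was called without CD44High replicate 22 (adjusted p = 0.00689), which held all its reads in that population. *Tnfrsf21* was 14.3, 52.9 and 50.2 normalised CPM in CD44LoKitPos and 13.1, 22.6 and 81.1 in CD44High. *Casp8* was 112, 124 and 160 in CD44LoKitPos and 106, 165 and 132 in CD44High. *Fadd* averaged 23.1 ± 4.74 and 28.6 ± 12.3, *Ripk1* 26.8 ± 7.49 and 23.6 ± 13.7, and *Cflar* 25.9 ± 7.46 and 25.8 ± 11.5 in these 2 populations (SD, n = 3 each). *Tnfrsf1a* had means of 60.3, 52.1, 54.9 and 51.9 normalised CPM from CD44Neg to CD44High and log2 fold changes between -0.22 and 0.08 in the 6 comparisons of populations.

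**Figure D3:**
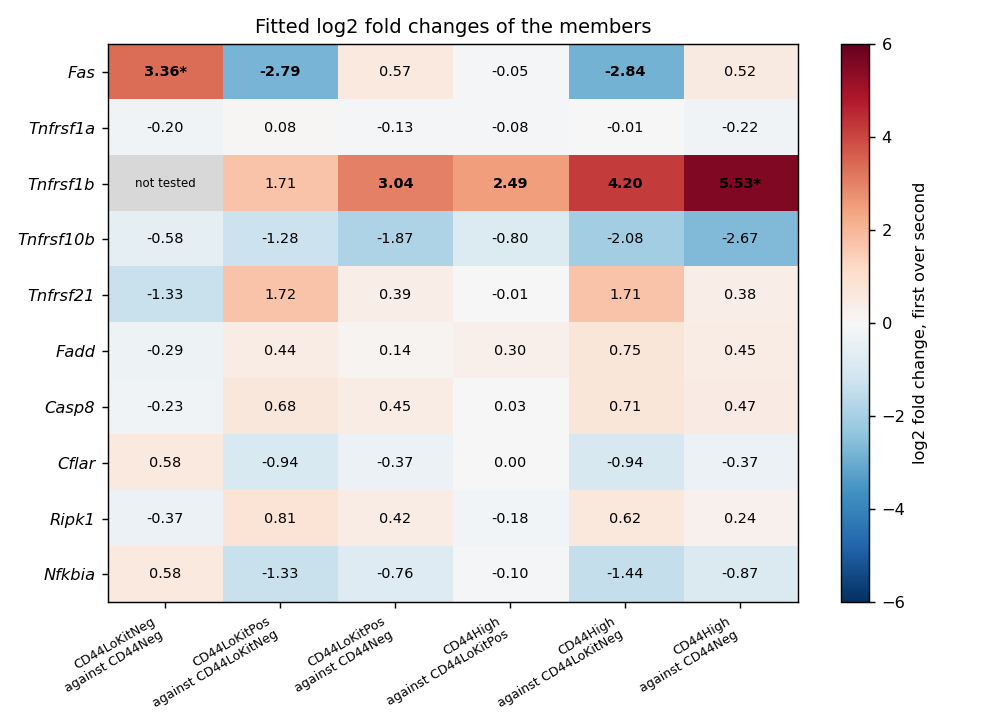
Fitted log2 fold changes of the 10 genes (rows) in the 6 comparisons of populations (columns, first population over second), coloured from -6 (blue) to 6 (red). An asterisk marks an adjusted p under 0.01 and bold marks populations that do not overlap; only *Fas* (3.36) and *Tnfrsf1b* (5.53) carry an asterisk, and grey marks a gene not tested.

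Within CD44Neg, *Tnfrsf1a* and *Nfkbia* were higher at later stages, though by edgeR neither passed the threshold. *Tnfrsf1a* was 38.5, 42.5, 24.8 and 43.3 normalised CPM at E9.5, 77.6, 39.8 and 57.3 at E10, and 88.2, 89.7 and 101 at E11. All 3 E11 libraries were above all 7 earlier libraries. The mean of 93.0 ± 6.98 (SD, n = 3) at E11 against 37.3 ± 8.598 (SD, n = 4) at E9.5 gave a fitted log2 difference of 1.34 (SE 0.29, adjusted p = 0.0198). DESeq2 called it (1.35, adjusted p = 0.000424), and so did edgeR without the filter (adjusted p = 0.00634). The endothelial marker sum moved the same way, from 3131 to 3789 normalised CPM in the E9.5 libraries to 4924 to 5086 in the E11 libraries. So did the share of reads on the ribosomal RNA gene *Rn45s*, from 1.92 to 13.8% at E9.5 to 15.2 to 17.9% at E11. Neither overlapped between the stages, and their part in the *Tnfrsf1a* and *Nfkbia* levels was not tested. *Tnfrsf1a* lies at chr6:125349723-125362483 (GRCm38.p6).

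*Nfkbia* was 46.6, 52.3, 52.3 and 50.9 normalised CPM at E9.5, 66.5, 82.8 and 58.5 at E10, and 74.2, 127 and 87.0 at E11. Every E10 and E11 library was above every E9.5 library, and E10 and E11 overlapped. The log2 fold change between E11 and E9.5 was 0.95 (SE 0.25, adjusted p = 0.0508), and DESeq2 called it (0.96, adjusted p = 0.00628). *Icam1*, an adhesion molecule and NF-κB target, was the 1 of 9 tested NF-κB target genes called in the same comparison, beside 0.684% of all genes (log2 fold change 1.66, SE 0.25, adjusted p = 0.00354), a call lost without replicate 1, 3 or 4 (adjusted p up to 0.0236). Its mean was 63.3 at E9.5 and 198 normalised CPM at E11. Among the other pathway lists *Cycs* (cytochrome c) was the 1 gene called by edgeR, and it fell by 1.27 on the log2 scale (SE 0.20, adjusted p = 0.00488), a call lost in 5 of 10 refits without 1 library. In those lists DESeq2 called *Cycs* and also *Cd40*, *Tnfrsf9* and *Trp53inp1*.

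**Figure D4:**
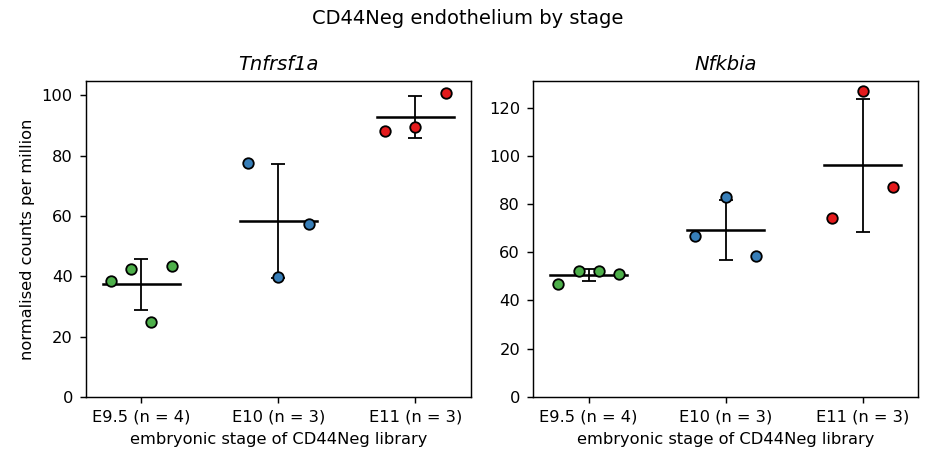
Normalised CPM (y axes from 0) of *Tnfrsf1a* and *Nfkbia* in the 10 CD44Neg libraries by stage (x axes); points are libraries, lines are means and bars are SD. The E11 libraries lie at 88.2 to 101 for *Tnfrsf1a* and at 74.2 to 127 for *Nfkbia*, above the E9.5 libraries in both.

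In E11 against E9.5 edgeR called 0 of 10, beside 0.684% of 11250 genes, with 2 at an unadjusted p under 0.05, beside 17.1% of genes, and the same 2 among the 462 genes called by DESeq2, and 2 of 10 did not overlap, beside 20.5% of genes. In E10 against E9.5 edgeR and DESeq2 called 0 of 10, beside 0.0178% of genes, with 1 at an unadjusted p under 0.05 (*Tnfrsf1a*), beside 15.2% of genes, and 1 of 10 (*Nfkbia*) did not overlap, also beside 15.2% of genes. In E11 against E10 both tools called 0 of 10, beside 0% of genes by edgeR, with 1 at an unadjusted p under 0.05 (*Tnfrsf1a*), beside 8.68% of genes, which was also the 1 that did not overlap, beside 14.8% of genes. Within CD44LoKitNeg, E11 against the earlier stages gave 0 of 9 called by either tool, beside 0.173% of 11010 genes, with 1 at an unadjusted p under 0.05, beside 16.8% of genes. That gene was *Tnfrsf21*, at 4.44, 7.63 and 3.41 normalised CPM at E11 and 12.2, 16.6 and 26.8 before, which did not overlap, beside 25.3% of genes (log2 fold change -1.80, SE 0.77, adjusted p = 0.282). In the same libraries the endothelial marker sum was 6488 to 7431 normalised CPM at E11 and 3330 to 4498 before, the blood sum 4.49 to 16.1 and 83.9 to 264, and the macrophage sum 0 to 9.95 and 28.9 to 72.4. The *Rn45s* share was 17.4 to 19.2% at E11 and 7.29 to 11.1% before. None of these overlapped, and their part in the *Tnfrsf21* level was not tested. For the dependence of the endothelial difference on stage, edgeR and DESeq2 called 0 of 9, beside 0.263% of genes, with 0 at an unadjusted p under 0.05, beside 12.4% of genes.

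Of the 6 listed ligand genes *Ltb* (lymphotoxin beta) was the one tested in CD44LoKitNeg against CD44Neg. It had 0 to 29 counts in CD44Neg, 0 to 58 in CD44LoKitNeg, 12 to 99 in CD44LoKitPos and 0 to 5 in CD44High, and the first 2 populations differed by -0.04 on the log2 scale (SE 1.24, adjusted p = 0.986). The FAS ligand gene *Fasl* had 0 counts in 21 of 22 libraries and 32 counts in 1 CD44LoKitPos library. *Tnf* had 0 counts in 9 of 10 CD44Neg and 5 of 6 CD44LoKitNeg libraries and 3 to 271 counts in the CD44High libraries. *Tnfsf10*, which encodes TRAIL, had at most 4 counts in any library, *Tnfsf12* at most 8, and *Lta* at most 1 outside a single CD44LoKitPos library with 39.

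Of 20 other listed receptors of the superfamily 11 were tested in CD44LoKitNeg against CD44Neg, 2 rose and 0 fell, beside 10.2% of all genes called. Of the 11 fitted differences 6 were positive and 5 negative, with a median log2 fold change of 0.52 beside 0.01 over all genes. *Tnfrsf23*, a decoy receptor that binds TRAIL, was 27.4 ± 23.8 normalised CPM (SD, n = 6) against 1.07 ± 1.71 (n = 10), a fitted log2 difference of 4.62 (SE 0.92, adjusted p = 0.00133). *Tnfrsf26* was 75.6 ± 32.0 against 7.78 ± 9.32, a fitted log2 difference of 3.29 (SE 0.75, adjusted p = 0.00398), lost without CD44LoKitNeg replicate 16 (adjusted p = 0.0107). These 2 genes and *Tnfrsf22* lie side by side on chromosome 7 and are alike in sequence, so how reads were split between them is uncertain. DESeq2 also called *Tnfrsf22*, which was higher (a median of 22.1 against 9.21), and *Tnfrsf9*, which was lower in CD44LoKitNeg (0 to 1 counts, against 0 to 97 in CD44Neg) and did not pass the filter of the edgeR fit.

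Among 17 receptor-proximal adaptors and ubiquitin enzymes, 16 were tested, 0 rose and 2 fell, with a median log2 fold change of 0.02. Over all genes 10.2% were called. *Ripk3*, the kinase that drives necroptosis, ranged from 98.6 to 176 normalised CPM in CD44Neg and from 35.8 to 83.2 in CD44LoKitNeg, with no overlap (log2 fold change -1.0003, SE 0.20, adjusted p = 0.00118). *Mlkl*, the pore-forming protein that RIPK3 activates, had 0 counts in all 6 CD44LoKitNeg libraries and 0 to 55 counts in CD44Neg, where 2 of 10 were also at 0. Set against a floor of 3 counts per library, *Mlkl* was at least 9.85-fold lower in CD44LoKitNeg. *Mlkl* passed the filter only through CD44Neg, where it was higher, so its edgeR call (adjusted p = 0.00408) is not separate support. It did not pass the filter in 6 of 16 refits that left out 1 library, nor with E11 or E10 libraries alone, so the call was not tested there, and it held in the other 10 refits (adjusted p up to 0.00847). Of 10 caspase and apoptosome genes, 1 rose and 1 fell, again beside 10.2% of all genes, with a median of 0.00. *Casp6*, an executioner caspase, rose from 77.8 ± 24.9 to 157 ± 38.9 (log2 fold change 1.02, SE 0.21, adjusted p = 0.00197), and *Cycs* (cytochrome c) fell by 1.21 on the log2 scale (SE 0.30, adjusted p = 0.00688), a call lost in 9 of 16 refits that left out 1 library (adjusted p up to 0.0199).

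Of the NF-κB arm no gene passed the threshold by edgeR in this comparison, in which edgeR called 10.2% of all genes. Of 8 tested IKK and TAK1 kinases edgeR called 0, with 4 at an unadjusted p under 0.05, beside 32.6% of all genes, and 3 among the 1879 genes called by DESeq2. Their median log2 fold change was 0.76. Of 8 NF-κB subunits and inhibitors edgeR called 0, with 1 at an unadjusted p under 0.05 and 1 by DESeq2, and a median of 0.05. Of 9 tested NF-κB target genes edgeR called 0, with 1 at an unadjusted p under 0.05 and 0 by DESeq2, and a median of -0.06. Of 13 listed p53 target genes, which are of interest because *Fas* and *Tnfrsf10b* are known p53 targets, 10 were tested, 0 rose and 2 fell, beside the same 10.2% of all genes. *Bax*, which permeabilises mitochondria, fell from 162 ± 37.5 to 71.4 ± 19.4 normalised CPM with no overlap (log2 fold change -1.17, SE 0.20, adjusted p = 0.000415), and the nuclease gene *Aen* fell by 1.42 (SE 0.35, adjusted p = 0.00768), a call lost in 12 of 16 refits without 1 library (adjusted p up to 0.0201). The median of the 10 was -0.10. With E11 libraries alone or E10 libraries alone, *Tnfrsf23*, *Tnfrsf26*, *Ripk3*, *Casp6*, *Cycs*, *Bax* and *Aen* were not called.

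**Figure D5:**
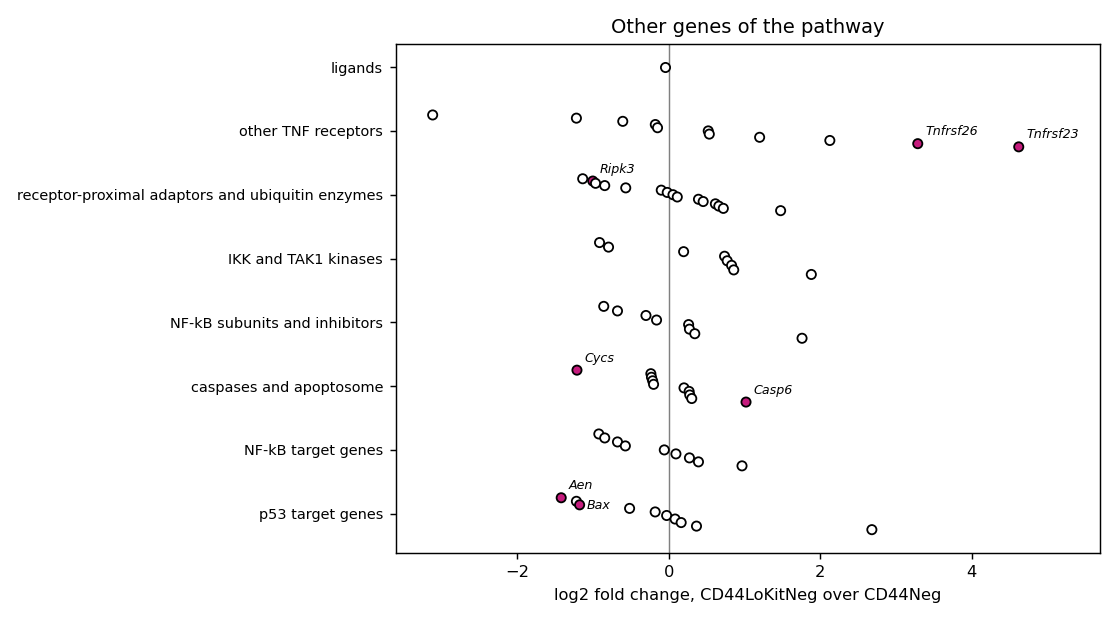
Fitted log2 fold change (x axis, CD44LoKitNeg over CD44Neg) of the tested genes in 8 pathway lists (rows), one point per gene; filled, named points passed an adjusted p of 0.01. *Tnfrsf23* and *Tnfrsf26* lie far to the right; *Mlkl*, with 0 counts in CD44LoKitNeg, is not drawn.

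In CD44High against CD44Neg, where *Tnfrsf1b* rose, edgeR called 1 as higher and 1 as lower of 17 tested in the receptor list. Over all genes it called 14.4% in either direction. DESeq2 called 4, which were *Cd40*, *Tnfrsf14*, *Eda2r* and *Tnfrsf19*. Of these *Eda2r* and *Tnfrsf19* were lower in CD44High, as was *Cd40*. *Cd40*, a receptor that activates NF-κB, fell from 87.9 ± 41.8 to 0.155 ± 0.138 normalised CPM (adjusted p = 6.6e-05). *Tnfrsf14* had 0 counts in all 10 CD44Neg libraries and 10.3 ± 5.03 normalised CPM in CD44High, at least 17.1-fold higher against a floor of 3 counts per library. It passed the filter through CD44High, where it was higher, so its edgeR call (adjusted p = 0.00142) is not separate support. That call was lost with a term for stage and with E11 libraries alone. Of 12 tested NF-κB target genes edgeR called 3 (*Sod2*, *Ccl2* and *Cxcl10*) and DESeq2 called 1 (*Sod2*). *Sod2* rose (log2 fold change 1.14, SE 0.22, adjusted p = 0.000366), a call lost without CD44High replicate 20 (adjusted p = 0.0196) and with E11 libraries alone. *Ccl2* had 14 to 217 counts in the CD44High libraries and 0 counts in every other library. It therefore passed the filter only through CD44High, where it was higher, and its call is not separate support. That call was lost with a term for stage and with E11 libraries alone. *Cxcl10* was high in 1 CD44High library (300.4 normalised CPM, against at most 1.07 in the other 2), and without that library, replicate 22, its adjusted p was 0.863. Its call was also lost with a term for stage. Of 13 p53 target genes edgeR called 2 as higher and 1 as lower. In these libraries the macrophage, blood and erythroid marker sums were higher and the endothelial sums lower than in CD44Neg, as given above. The macrophage sum was 3760 to 6086 normalised CPM over the 3 CD44High libraries. The part of these marker lists in the differences was not tested.

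Over the 22 libraries, the genes whose profile was most like that of *Fas* were *Eif2ak3*, *Mansc1*, *Ltbp1*, *Sept4* and *Tnfrsf23*, by the root mean square difference of log2 CPM after centring each gene. Their differences were 1.49, 1.66, 1.74, 1.74 and 1.78 log2 units, beside a median of 2.78 over the genes of the same fit. *Ltbp1*, which encodes a binding protein of latent TGFβ, averaged 163 ± 60.8 normalised CPM in CD44LoKitNeg (SD, n = 6) and 11.8 ± 8.96 in CD44Neg (n = 10). Means in the same order were 20.7 and 11.4 for *Eif2ak3* and 31.9 and 16.6 for *Sept4*. They were 38.5 and 10.3 for *Mansc1*, and 27.4 and 1.07 for *Tnfrsf23*. *Eif2ak3*, the nearest gene, and *Sept4* thus rose far less than *Fas*, with means of 95.6 and 9.30. A small difference on this measure therefore does not mean a rise as large as that of *Fas*. *Tnfrsf23* is the 1 of the 5 that belongs to the same receptor superfamily. The measure is a description of shared levels in these libraries, which differ in population and stage.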

How the data were processed

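The authors sorted 25 cells per library into lysis buffer, amplified polyA RNA by SMART-Seq2 with Nextera library preparation, clipped adaptors with FASTX, mapped reads with RNA STAR and counted them with htseq-count. FastQC, HTSeq and the build mm10 are named in the submitters' processing notes. The deposited values are raw counts of reads per gene symbol, without normalization. The annotation, strand setting and handling of shared reads are not given in the sources used here. The reads carry no molecular identifiers.

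Analysis used R 4.3.3 with edgeR 4.0.16 and DESeq2 1.42.0. Genes were filtered with filterByExpr (minimum count 10, minimum total 15), scaled by TMM and tested with edgeR (quasi-likelihood F test). P-values were adjusted by Benjamini-Hochberg over all genes tested, and a gene was called when its adjusted p was under 0.01. CD44LoKitNeg was compared with CD44Neg over their 16 libraries, the other populations in 1 fit of 22 libraries, and stages within CD44Neg, within CD44LoKitNeg and as an interaction with stage in the fit. Normalised CPM is the read count scaled to library size after TMM. Standard errors were derived from the F statistic. Between libraries sharing population and stage (20 pairs), chi-square per degree of freedom was 17.0 to 85.2, so none was a duplicate. The 45S precursor *Rn45s* took 1.92% to 23.9% of counts. Depth was 3912350 to 8657546 reads per library, and limits from counts cover counting error only. The fits were tested on simulated data.

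The 10 genes, the pathway lists and the marker lists were chosen with earlier results of these data known. All 10 are named with their levels. Fold changes are given for the 9 tested in CD44LoKitNeg against CD44Neg and elsewhere for genes called there or under an alternative, with others of the 10 named after their values were seen. List genes are named by lowest adjusted p among those called, apart from ligands, which were named after their values were seen, and for *Fas* the 5 nearest profiles. Alternatives were other scalings, no filter, DESeq2's Wald test, an adjusted p of 0.05, stage as a covariate, all libraries in 1 fit, stages that hold both populations, leaving out *Rn45s*, and leaving out each library. E11 alone and E10 alone were chosen after seeing the data.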

Additional observations from a re-analysis of the deposited data

Results flagged for a closer look

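Over 30 sets of libraries (each of the 10 genes in CD44Neg, in CD44LoKitNeg and in the E9.5 libraries of CD44Neg), 3 values lay apart from the rest of their set by Dixon's test at the 95% level, which by chance flags about 1 in 20 sets. *Casp8* was 161 normalised CPM in CD44LoKitNeg replicate 16 (E10), where the next library had 89.8. *Nfkbia* was 127 in CD44Neg replicate 2 (E11), where the next had 87.0. *Cflar* was 50.6 in CD44Neg replicate 6 (E9.5), where the next of the 4 E9.5 libraries had 28.1. CD44LoKitNeg replicate 16 was also the library with the lowest *Cflar* (10.4) and the lowest *Ripk1* (3.52) of its population.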

How the results depend on the processing

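In CD44LoKitNeg against CD44Neg the number of these genes called was 1 under 25 of 27 alternatives and 0 with E11 libraries alone or E10 libraries alone, where the *Fas* difference stayed positive. Leaving out each library kept *Fas* called, with a log2 fold change of 3.21 to 3.54 and an adjusted p of at most 0.00173. The difference in *Fadd* turned to 0.33 with E11 alone and that in *Casp8* to 0.30 with E10 alone, and neither was called in any fit. The counts of genes called moved in 3 other comparisons. In CD44High against CD44LoKitNeg, where 0 were called, it was 1 with stage as a covariate, 1 by DESeq2's Wald test, 1 with only stages that hold both populations, 2 at an adjusted p of 0.05, and 0 to 1 when a library was left out. In CD44High against CD44Neg it was 0 with only stages that hold both populations and 0 to 1 when a library was left out, with *Tnfrsf10b* in place of *Tnfrsf1b* without CD44High replicate 22. In CD44Neg E11 against E9.5, where 0 were called, it was 1 without the filter, 2 by DESeq2's Wald test and 1 at an adjusted p of 0.05. The cause of these shifts was not tested. The count was the same under every alternative run in the other 7 comparisons. No paired analysis was possible because each library has its own number. With 3 libraries of CD44LoKitPos and CD44High each, and with *Tnfrsf1b* at 0 counts in 5 of 10 CD44Neg and 3 of 6 CD44LoKitNeg libraries, a gene that was not called is not shown to be equal, and what the number of libraries or their depth contributed was not tested.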
